A study of Rattus norvegicus with 12 samples.

Results

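The response of rat cerebellar granule neuron cultures to GW5074 was examined at 6 h, the later of the 2 times sampled. The comparison holds the 6 of 12 arrays whose titles name 6 h, 3 labelled LK (low potassium) and 3 labelled GW (GW5074), with the letters A, B and C in each treatment, and it covers every non-control probe set of an Affymetrix rat expression array. The other 6 arrays are the same treatments and letters at 3 h. The labels give the source as cerebellum and describe neuronal cultures given the compound GW5074. They name no strain, animal age or dose, and they leave unstated whether potassium was also lowered in the cultures given GW5074. Nothing in them makes the letters separate cultures or animals, so the p-values speak only of the scatter among these arrays, which could be technical. The title of GW5074 array A at 6 h carries a suffix unlike that of the 11 other titles and that no label explains. No group in raised potassium or without treatment is among the 12 arrays, so every change is relative to low potassium at the same time.

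Granule neurons are the small excitatory neurons of the cerebellar cortex, and in culture they are commonly kept alive by raised potassium, which depolarises them and lets calcium in. When potassium is lowered they die over the following day by a process that needs new transcription. The transcription factor Jun, activated by the stress kinase JNK, is a well-known early step of this process. GW5074 is a small molecule described as an inhibitor of the kinase c-Raf, an upstream member of the RAF-MEK-ERK cascade. The question addressed is which genes and gene families differ after the longer exposure to the compound.

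The 6 h arrays carried the marks of granule neurons. Neurod1, a transcription factor of these cells, stood at 3270 ± 281 in low potassium and 3105 ± 217 with GW5074 (deposited intensity, SD, n = 3 in each group). Gabra6, a GABA-A receptor subunit typical of mature granule neurons, stood at 1087 ± 287 and 1135 ± 317. Zic1, Pax6, Slc17a7 and Rbfox3 were also measured, whereas Cbln3 is not named on the array. Other cells were present too: the astrocyte gene Gfap ranged from 728 to 2764 in low potassium and from 941 to 2032 with GW5074. The oligodendrocyte gene Mbp stood at 1560 ± 121 and 1487 ± 397, and Gad1 of GABAergic neurons at 575 ± 85.6 and 570.1 ± 97.2, low potassium first. The microglial gene C1qa was measured too, at 127 ± 49.2 and 93.8 ± 28.1. On the array, 13 of 18 microglia and macrophage markers and 8 of 17 endothelial and fibroblast markers were bright enough to test. Pecam1, Cldn5, Aif1 and Cx3cr1, which mark endothelial cells and microglia, were too dim.

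The arrays differed by time and letter as well as treatment. The first principal component, along which the times separated, held 54.8% of the variance. On this component, scaled so that the 3 h arrays average 0 and the 6 h arrays 1, letters A and C at 6 h lay between 1.10 and 1.23. Letter B lay at 0.691 in low potassium and 0.628 with GW5074. The 6 h arrays of the same letter deviated together from their group means, with correlations of 0.291, 0.651 and 0.573 for A, B and C. As a sign of RNA quality, the actin 3-prime probe set was set against the 5-prime one, and the difference was larger under GW5074 in each pair, by 0.113, 0.185 and 0.0355 on the log2 scale. The same difference of the GAPDH probe sets was 0.0493, 0.0609 and -0.0435, so pair C went the other way. The poly-A spike-in controls were lower with GW5074 in each pair, by log2 -0.539, -0.108 and -0.562. The part of these differences in the changes below was not tested.

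Genes moved modestly in both directions, and the falls reached further than the rises. A limma fit that treats same-letter arrays as pairs called 349 of 18625 probe sets at an adjusted p of 0.05 (1.87%), 178 higher and 171 lower with GW5074. Without pairs limma called 0 (0.0%), with 0.097 as the smallest adjusted p. In that fit 895 of the 18625 probe sets had an unadjusted p under 0.05, fewer than that threshold would pass by chance. The fit without pairs was the planned main test and the fit with pairs its alternative. Since the main test gave no calls, rose and fell always refer to the fit with pairs. The log2 changes are of quantile-normalised intensities with 16 added, which understates changes of dim genes. Taking each gene by its brightest probe set, 114 of 10259 genes rose (1.11%) and 86 fell (0.838%). The family counts below are to be read against these shares.

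The median called rise was log2 0.46 and the median called fall log2 -0.53, against 0.015 over all genes. Of the called genes, 10 fell by more than 2-fold and 0 rose by that much. In 105 of the 200 called genes, 60 rises and 45 falls, the 3 GW5074 arrays lay clear of the 3 low-potassium arrays. The same was seen in 544 genes upward and 407 downward of the 10259 tested. That is no more than a random ordering of the arrays would give. Pair A carried the largest shifts, with a median of 0.53 for the rises and -0.58 for the falls. The medians were 0.39 and -0.37 in pair B and 0.40 and -0.55 in pair C. Without the 6 h pair A, 31 of the 200 gene calls held, without pair B 113 and without pair C 65. When the variance prior had no trend with intensity, 1 call was left, that of Stmn4.

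**Figure D1:**
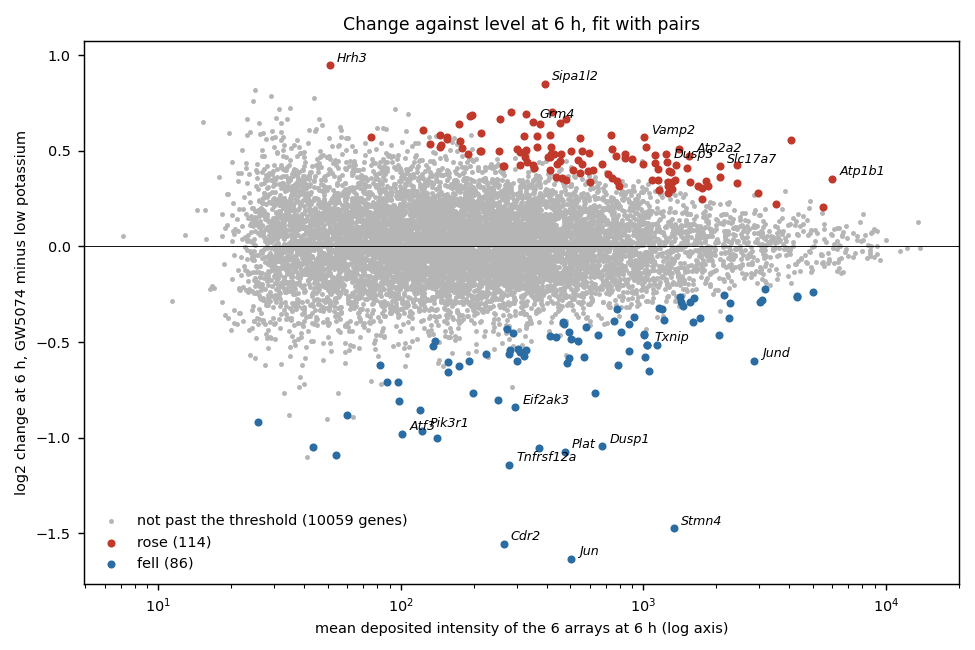
Log2 change at 6 h (GW5074 minus low potassium, vertical) against the mean deposited intensity of the 6 arrays (horizontal, log axis), 1 point per gene; red points rose and blue points fell in the limma fit with pairs. The falls reach log2 -1.64 (Jun) and the rises 0.95 (Hrh3), and most genes lie near 0.

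Some members of AP-1, the dimeric transcription factor built from Jun, Fos and ATF proteins, were called downward. They were 2 of 3 Jun genes, 1 of 6 ATF, MAF and BATF partners and 0 of 3 Fos genes, beside 0.838% of all genes. Jun had the largest fall of all 10259 genes. Its deposited intensity was 879.9, 778 and 603 on low-potassium arrays A, B and C and 400.3, 221 and 147 with GW5074, so every GW5074 array lay below every low-potassium array. The change was 3.11-fold downward (log2 -1.64, SE 0.14, adjusted p = 2.69e-05 by limma with pairs), and all 3 Jun probe sets fell. Jund, a more steadily expressed relative, went from 4115, 2601 and 3774 to 2342, 1959 and 2418, again with no overlap of the groups. It fell in each pair (log2 -0.60, SE 0.074, adjusted p = 0.000523). The third relative, Junb, read 116 ± 29.5 and 101 ± 14.9 (SD, n = 3) and was not called (log2 -0.14, SE 0.14, adjusted p = 0.673).

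Atf3, a stress-induced partner of Jun, read 211, 185 and 43.6 in low potassium and 42.6, 87.7 and 39.2 under GW5074. Arrays A and B of low potassium were far above the rest, while array C was about level with its GW5074 partner, so the groups overlapped. Atf3 fell by the paired limma fit (log2 -0.98, SE 0.21, adjusted p = 0.0267), but the call ended without the 6 h pair A (adjusted p = 0.276) or B (0.067). It was the only one called of the 6 measured ATF, MAF and BATF partners, whose median was -0.22. None of the 3 measured Fos genes passed. Fos itself read 139, 206 and 86.8 against 94.1, 418 and 78.7, with one GW5074 array, B, far above the others (log2 0.14, adjusted p = 0.777), and the sign of its change turned in the fit without pairs when that array was left out.

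Among the other immediate early genes, which are switched on quickly by activity or stress, 2 of 17 rose and 1 fell. Their median was -0.04, and of all genes 1.11% rose and 0.838% fell. Ier5 rose (log2 0.40, SE 0.083, adjusted p = 0.0223), as did the orphan nuclear receptor Nr4a3 (log2 0.57, SE 0.14, adjusted p = 0.0418), and Ier3 fell (log2 -0.54, SE 0.13, adjusted p = 0.0455). In all 3 the groups overlapped, and letter B read higher than the other letters for Ier5 and Nr4a3 in both treatments. Egr1, the classic ERK-responsive factor, read 473 ± 142 and 357 ± 62.5 (SD, n = 3) and did not pass (adjusted p = 0.0921). The calls of Ier3 and Ier5 ended without the 6 h pair A (limma adjusted p = 0.387 and 0.15) or C (0.0873 and 0.112), and that of Nr4a3 without any one pair (0.0641, 0.137 and 0.182 without A, B and C). The 10 measured MEF2 and CREB factors and the 12 activity-dependent effectors and neuropeptides held 0 calls.

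**Figure D2:**
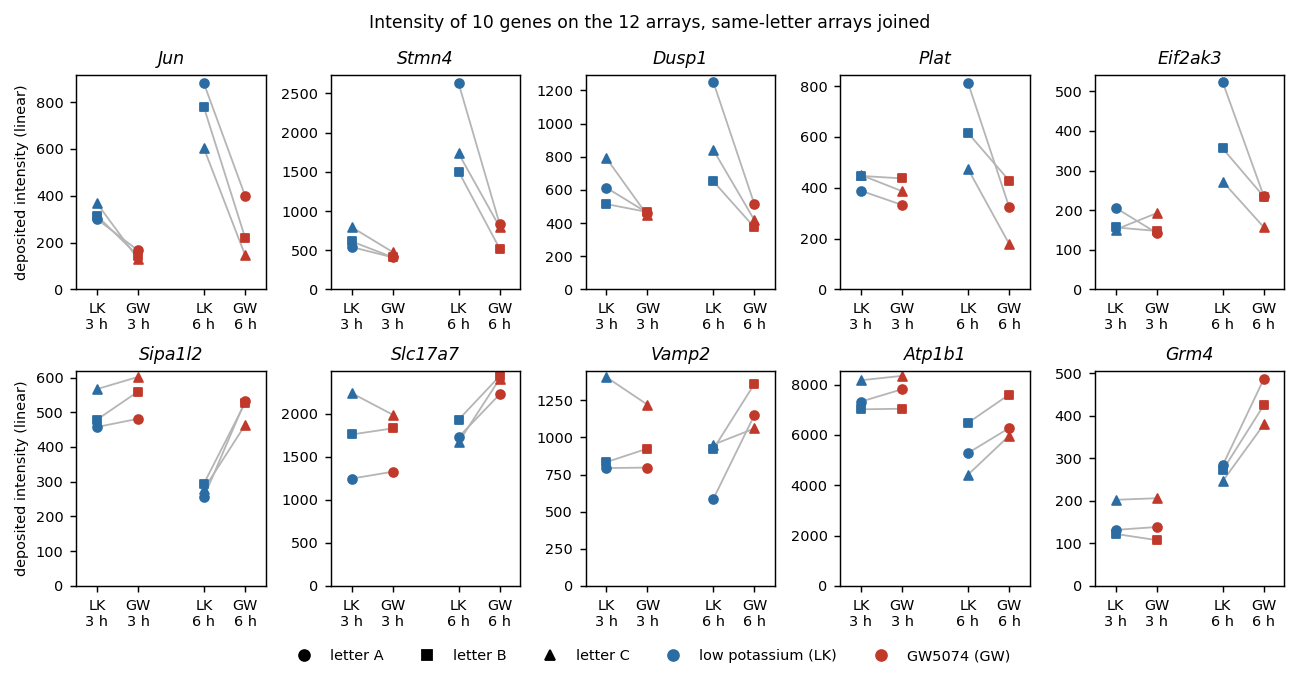
Deposited intensity (linear axis from 0) of 10 genes on each of the 12 arrays, with arrays of the same letter and time joined by a line; low potassium is blue, GW5074 red. At 6 h the GW5074 arrays lie below all low-potassium arrays for Jun, Stmn4, Dusp1, Plat and Eif2ak3 and above them for Sipa1l2, Slc17a7, Vamp2 and Grm4, while for Atp1b1 the groups overlap and each line rises.

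The phosphatases and kinases of the MAP kinase pathways showed a few opposite changes within families that otherwise gave no calls. Dusp1, a nuclear phosphatase that switches off JNK and p38, read 1252, 652 and 842 in low potassium, against 513, 374 and 418 with GW5074. Every GW5074 array lay below every low-potassium array. Dusp1 fell 2.07-fold (log2 -1.05, SE 0.12, adjusted p = 0.00027 by limma with pairs), and both of its probe sets were called. Dusp5, a nuclear phosphatase specific for ERK, moved the other way, from 1049, 1258 and 850.4 to 1249.8, 1959 and 1129. Its groups overlapped because letter B was high in both treatments, but each pair rose (0.27, 0.64 and 0.42; log2 0.44, SE 0.08, adjusted p = 0.0106). The Dusp5 call ended without the 6 h pair B (adjusted p = 0.0736).

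Of the 16 measured Dusp genes the other 14 did not pass, the cytosolic ERK phosphatase Dusp6 among them. The family median was -0.011. Gadd45g, a stress-induced activator of the p38 and JNK cascade, read 846, 783 and 403 against 492, 616 and 267 and fell (log2 -0.58, SE 0.093, adjusted p = 0.00582). It was lower in each pair, although letters A and B of GW5074 stayed above low-potassium array C. Its call ended without the 6 h pair A (adjusted p = 0.0674). The related Gadd45a and Gadd45b did not pass.

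The kinases themselves gave 0 calls in 12 measured members of the RAF-MEK-ERK cascade, 9 of the JNK cascade and 9 of the p38 cascade, with medians of -0.039, -0.059 and 0.069. The single call among 15 PI3-kinase and AKT genes was Pik3r1, the regulatory subunit that stabilises the catalytic subunits and restrains them. Pik3r1 read 176, 232 and 96.0 in low potassium and 63.2, 124 and 45.0 under GW5074. Letter B was high and letter C low in both treatments, so the groups overlapped, but it fell in each pair by a like amount (-1.21, -0.84 and -0.84 in A, B and C; log2 -0.96, SE 0.13, adjusted p = 0.00163 by limma with pairs).

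Promoter sequence was available from RefSeq for 8584 of the 10259 tested genes, as 250 bases before to 50 after the start. The table used here lists no window for Jun, Stmn4, Plat or Atf3. Stretches are shown for the 3 called members of the Jun and Dusp families that have one, picked with their motifs known. The 2 that fell held the cyclic AMP response element (CRE, TGACGTCA). The 1 that rose held the CArG box of serum response factor. Sipa1l2, the largest rise with separate groups, also has a window, which held none of the motifs searched and is not shown. Capitals mark the motif, letters run 5′ to 3′ on the gene's strand, and coordinates are GRCr8. The Dusp1 stretch is chr10:17184693-17184852 (plus strand, bases -160 to -1, CRE at -124 to -117), the Jund stretch chr16:18769922-18770021 (minus strand, bases -250 to -151, CRE at -221 to -214) and the Dusp5 stretch chr1:262543674-262543773 (plus strand, bases -100 to -1, adjacent CArG boxes at -82 to -73 and -72 to -63).
Dusp1: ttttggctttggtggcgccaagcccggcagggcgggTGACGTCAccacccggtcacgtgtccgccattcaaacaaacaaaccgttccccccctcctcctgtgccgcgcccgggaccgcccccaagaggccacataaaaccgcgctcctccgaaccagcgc
Jund: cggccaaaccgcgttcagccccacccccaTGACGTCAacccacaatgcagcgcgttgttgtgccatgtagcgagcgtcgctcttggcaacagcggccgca
Dusp5: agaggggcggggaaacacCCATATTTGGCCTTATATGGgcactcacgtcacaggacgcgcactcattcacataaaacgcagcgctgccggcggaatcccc

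Over both strands, the CRE octamer was in 4 of 64 windows of genes that fell (6.25%) and 1 of 95 windows of genes that rose (1.05%), against 3.41% of tested genes and 1.83% of all RefSeq windows. Besides Dusp1 and Jund it was in the falling genes Gas5 and Zfp605. The CArG box was in 3 windows of genes that rose (3.16%; Dusp5, Slc25a23 and Camta2) and 0 of genes that fell, against 1.3% of tested genes. The AP-1 site, TGANTCA, was in 5.26% of the windows of genes that rose and 3.12% of those that fell, against 4.72% of tested genes. The MEF2 site was in 1.05%, 4.69% and 1.43% of these windows in the same order. The FOXO site GTAAACAA and the ER stress element were in 0 of either. The CRE octamer does not contain the AP-1 site, and the A and T run of a CArG box can share bases with a MEF2 site. These counts are descriptions of the windows, and a match is not a site of binding.

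Stmn4, a brain member of the stathmins, which bind tubulin and promote the shrinking of microtubules, fell with the smallest p of all probe sets. It read 2631, 1504 and 1735 in low potassium, against 830.4, 519 and 795 with GW5074. The highest GW5074 array lay well below the lowest low-potassium array, and the fall was large in each pair (-1.71, -1.51 and -1.20). Stmn4 fell 2.78-fold (log2 -1.48, SE 0.094, adjusted p = 6.78e-07 by limma with pairs), and its adjusted p without pairs, 0.097, was also the smallest of that fit.

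The other 3 stathmins were not called: Stmn1, Stmn2 and Stmn3 had log2 changes of 0.059, 0.026 and 0.021 (limma adjusted p of 0.639, 0.864 and 0.884). The family median, 0.024, changed sign under other scalings. Among 11 tubulins 1 passed, beside 1.11% of all genes that rose. Tubb4a, a beta-tubulin of mature neurons, rose from 403, 424 and 493 to 714, 566 and 701 (log2 0.57, SE 0.12, adjusted p = 0.022), with the groups apart and with 2 of its 3 probe sets called. Among 26 microtubule-associated proteins Map1a, which binds microtubules in mature dendrites, was the single call (365, 309 and 349 against 537, 449 and 453; log2 0.47, SE 0.099, adjusted p = 0.0231). The medians of the tubulins and of the microtubule-associated proteins were 0.11 and 0.10. Without the 6 h pair A the calls of Tubb4a and Map1a ended (adjusted p = 0.218 and 0.173), as they did without pair C (0.0702 and 0.0551), and that of Map1a also without pair B (0.0962).

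Plat, tissue plasminogen activator, a secreted protease that neurons release on activity, read 814, 616 and 474 in low potassium and 325, 428 and 179 under GW5074. The groups did not overlap, but GW5074 array B came closer to its partner than the others. Plat fell 2.10-fold (log2 -1.07, SE 0.13, adjusted p = 0.000508 by limma with pairs). It was the only call among 8 measured genes of the plasminogen system, and its inhibitor Serpine2 and relative Plau were not called.

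The largest rise with separate groups was in Sipa1l2, a GTPase-activating protein for the small GTPase Rap that is found at synapses. It read 256, 294 and 279 in low potassium, against 532, 527 and 463 with GW5074, tight groups with a wide gap between them. Sipa1l2 rose 1.80-fold (log2 0.85, SE 0.093, adjusted p = 0.000212 by limma with pairs); its second probe set was at log2 0.41 and was not called. Rap1gap, another protein that switches Rap off, rose with it, from 876, 855 and 834 to 1327, 1003 and 1087 (log2 0.43, SE 0.092, adjusted p = 0.0254). These were the 2 calls among 15 Rap regulators, beside 1.11% of all genes that rose. The median of the 15, 0.026, changed sign under other scalings. The Rap1gap call ended without the 6 h pair A (adjusted p = 0.257) or C (0.0839). Of 39 measured Rab GTPases, which direct vesicle traffic, Rab30 alone was called. Rab30, a Golgi member, read 148, 126 and 104 against 79.9, 54.9 and 69.98 and fell (log2 -0.71, SE 0.15, adjusted p = 0.0222), a call that ended without pair A (0.157) or B (0.13).

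Daam1, a formin that elongates actin filaments, read 570.2, 559.9 and 608 against 482, 336 and 346 and fell (log2 -0.61, SE 0.11, adjusted p = 0.0118 by limma with pairs), with both probe sets called. Elmo2, which helps to activate Rac, rose from 259, 345 and 271 to 447, 444 and 425 (log2 0.58, SE 0.10, adjusted p = 0.00889), and Fnbp1, a membrane-bending protein linked to actin, rose with 2 of 5 probe sets called (log2 0.47, SE 0.11, adjusted p = 0.0343; mean of the 5, 0.29). The 3 GW5074 arrays lay clear of the low-potassium arrays for all 3 genes. The call of Daam1 ended without the 6 h pair B (0.0644) or C (0.083), that of Elmo2 without A (adjusted p = 0.0908) or C (0.0539), and that of Fnbp1 without A (0.266) or B (0.146).

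In the endoplasmic reticulum, where secreted proteins fold, 3 genes fell and the main chaperone was not called. Eif2ak3, the kinase PERK that slows translation when misfolded protein builds up, read 523, 356 and 272 in low potassium and 235, 234 and 157 under GW5074, with no overlap (log2 -0.84, SE 0.14, adjusted p = 0.00764 by limma with pairs). Dnajb9, a co-chaperone induced by the same stress, fell from 1037, 809 and 740.3 to 733, 651 and 583 (log2 -0.39, SE 0.088, adjusted p = 0.0335). Its highest GW5074 array lay just below its lowest low-potassium array, and after normalisation the groups overlapped. Uggt1, a folding sensor for glycoproteins, was dim, with 40.4, 44.2 and 32.2 against 17.5, 7.56 and 12.4 (log2 -0.92, SE 0.21, adjusted p = 0.0364). Hspa5, that chaperone, read 3006 ± 1429 and 2915 ± 1181 (SD, n = 3) and did not pass. The 36 measured ER genes had 0 rises and a median of 0.041, and 0.838% of all genes fell.

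Without the 6 h pair A the calls of Eif2ak3, Dnajb9 and Uggt1 ended (limma adjusted p = 0.114, 0.263 and 0.104), and those of Dnajb9 and Uggt1 also without B (0.0601 and 0.181) or C (0.0779 and 0.0917). The 27 genes of the ATF4 and amino acid response gave 0 calls and a median of -0.11. Ddit3, the stress factor CHOP, read 1314, 424 and 594 against 740.1, 397 and 456 (log2 -0.46, adjusted p = 0.0596), with low-potassium array A far above the rest. Without that array the sign of its change turned in the fit without pairs. The 21 cytosolic heat shock genes, 19 aminoacyl-tRNA synthetases and 19 NRF2 and antioxidant genes also gave 0 calls.

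BH3-only proteins start mitochondrial apoptosis, and of the 7 measured only Bid was called. Bid rose from 213, 219 and 231 to 321, 274 and 324, with the groups apart (log2 0.42, SE 0.10, adjusted p = 0.046 by limma with pairs), but the call ended without any one 6 h pair (adjusted p = 0.278, 0.067 and 0.142 without A, B and C). Hrk, a BH3-only gene known to be induced through JNK in dying granule neurons, read 146, 68.4 and 113 in low potassium, against 73.5, 45.6 and 48.8 with GW5074. It was lower in each pair (-0.80, -0.43 and -0.94), but the groups overlapped and it missed the threshold (adjusted p = 0.064).

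Bbc3, the p53 target PUMA, was likewise lower in each pair without passing (log2 -0.44, SE 0.12, adjusted p = 0.0815 by limma with pairs). Bcl2l11, the BH3-only gene BIM, read 386, 665 and 396 and 449, 653 and 401, with changes of 0.18, -0.028 and 0.024 in the pairs (log2 0.059 on average, adjusted p = 0.794), and the sign turned in the fit without pairs when single arrays were left out. The 7 multidomain Bcl-2 genes, 11 caspase and apoptosome genes and 13 p53 targets held 0 calls, with medians of -0.028, 0.013 and -0.14. Among 18 FOXO factors and targets, Txnip, which binds thioredoxin and limits glucose uptake, fell (792, 1630.0 and 1193 against 530.2, 1312 and 772; log2 -0.51, SE 0.08, adjusted p = 0.00479). Its groups overlapped, with letter B high in both, and each pair was lower. The median of these genes was -0.15.

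Of 33 measured genes of synaptic vesicles and release, 4 rose and 0 fell, beside 1.11% and 0.838% of all genes. Their median was 0.15 (between 0.096 and 0.16 over the other settings tried). Slc17a7, the vesicular glutamate transporter VGLUT1 of granule neuron terminals, went from 1728, 1930.5 and 1669 in low potassium to 2226, 2438 and 2407 with GW5074. The groups lay apart and both probe sets were called (log2 0.42, SE 0.065, adjusted p = 0.0042 by limma with pairs). Dnm1, the dynamin that pinches off recycling vesicles, read 2069, 2162 and 2045 against 3016, 2515 and 2746 (log2 0.42, SE 0.069, adjusted p = 0.00594), again with separate groups.

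Vamp2, the vesicle SNARE protein of fast release, rose from 585, 921 and 951 to 1151, 1361 and 1060.3 (log2 0.57, SE 0.11, adjusted p = 0.0171 by limma with pairs). Pair A moved most and pair C least (0.98, 0.56 and 0.17), though the groups did not overlap. Syp, synaptophysin, an abundant protein of the vesicle membrane, was the fourth (log2 0.35, SE 0.076, adjusted p = 0.0271). Without the 6 h pair A the calls of Dnm1, Vamp2 and Syp ended (adjusted p = 0.0734, 0.178 and 0.102), and that of Syp also without B (0.16) or C (0.0552). Snap25, Stx1a and Nsf, other parts of the fusion machinery, did not pass. The vesicle transporters Slc6a17 (neutral amino acids) and Tmem163 (zinc), in no list, rose as well. Slc6a17 had 3 of 4 probe sets called (2543, 4577 and 3032 against 4894, 5915 and 3484; log2 0.56, SE 0.096, adjusted p = 0.0077), and Tmem163 had separate groups (215, 322 and 209 against 396, 464 and 365; log2 0.69, SE 0.10, adjusted p = 0.00306).

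**Figure D3:**
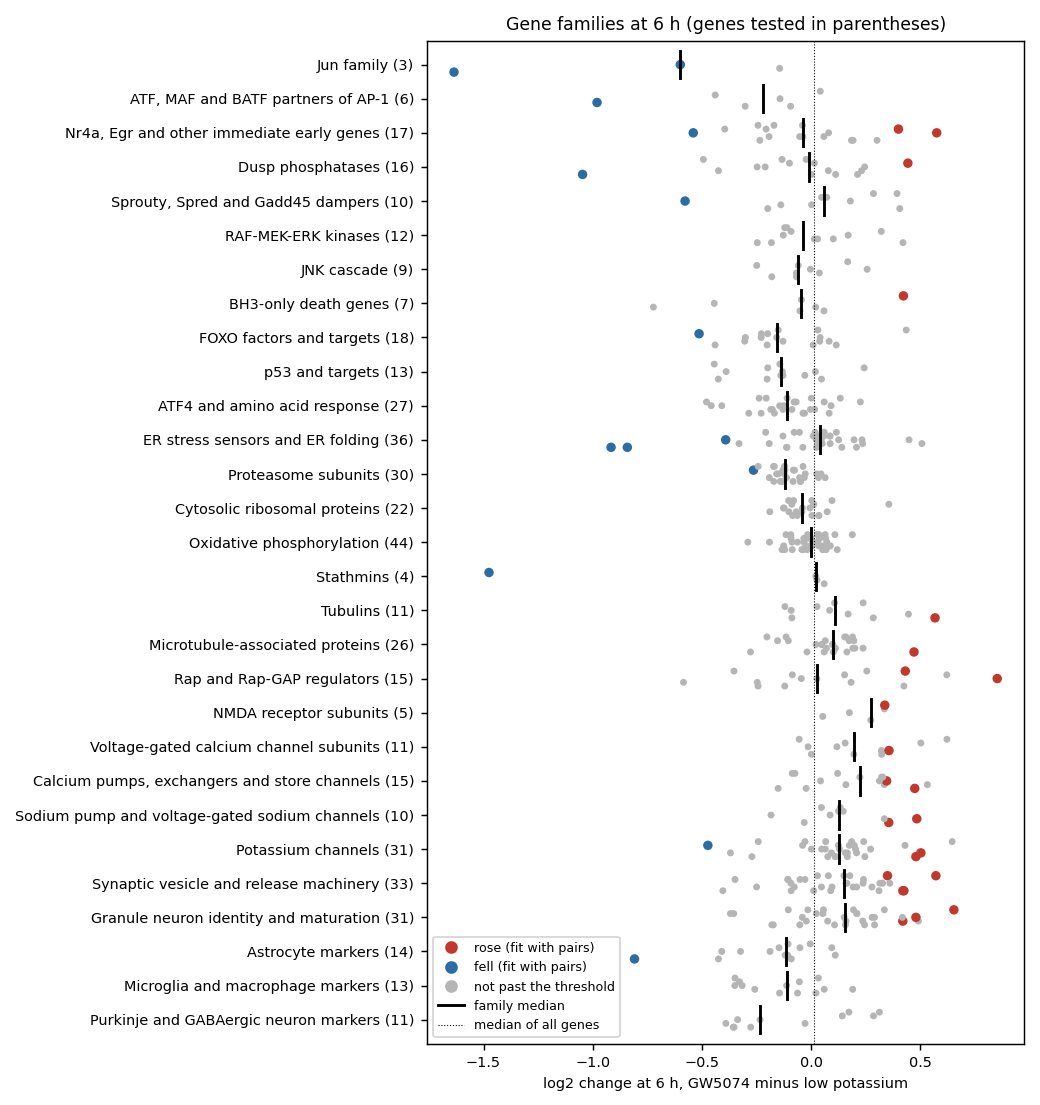
Log2 change at 6 h (horizontal) of the tested members of 29 gene families, 1 point per gene; red points rose, blue points fell and grey points did not pass in the limma fit with pairs, black bars are family medians and the dotted line is the median of all genes, 0.015. Calls are few in each family; the synaptic, calcium and granule neuron families have medians of 0.15 to 0.22 with calls upward, and the Jun family has 2 of 3 members called downward.

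Pumps and channels that set calcium and membrane potential gave a few calls per list, most of them upward. Over all genes 1.11% rose and 0.838% fell. Atp2a2, the pump SERCA2 that fills the calcium stores, read 1252, 1314 and 1369 in low potassium and 1919, 1731 and 1702 under GW5074, with separate and narrow groups (log2 0.47, SE 0.072, adjusted p = 0.00394 by limma with pairs). Its 3 other probe sets were not called and went down to log2 -0.13, and the mean of all 4 was 0.16. Atp2b1, a pump of the plasma membrane, rose with 2 of 3 probe sets called (log2 0.35, SE 0.076, adjusted p = 0.0292). These were the calls among 15 calcium pumps, exchangers and store channels, whose median was 0.22. Cacnb3, a channel subunit that brings calcium channels to the surface, was the call among 11 calcium channel subunits (log2 0.36, SE 0.082, adjusted p = 0.0375; median 0.20).

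Among 10 measured sodium pump and sodium channel genes, with a median of 0.13, the calls were 2 beta subunits of the pump. Both rose, with overlapping groups and a rise in each pair. Atp1b1 read 5279, 6479.8 and 4418 against 6273, 7603 and 5965 (log2 0.36, SE 0.046, adjusted p = 0.000955 by limma with pairs), and Atp1b2 read 1062, 845 and 1211 against 1490.4, 1018 and 1780.5 (log2 0.48, SE 0.083, adjusted p = 0.00764). Of 31 potassium channel genes 2 rose and 1 fell, with a median of 0.13. Kcnd2 and Kcnd3 encode the A-type channels that delay firing, and went from 674, 1346 and 825 to 1078, 1667 and 1120.2 (log2 0.48, SE 0.089, adjusted p = 0.0118) and from 334, 561 and 498 to 616, 710.0 and 619 (log2 0.50, SE 0.11, adjusted p = 0.0259). Both Kcnd2 probe sets were called, whereas 1 of the 3 of Kcnd3 was at log2 -0.55 and their mean was 0.11. Kcnk1, a leak channel, fell (log2 -0.47, SE 0.12, adjusted p = 0.0459).

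Of these pump and channel calls, those of Atp2a2 and Atp1b1 held without each of the 6 h pairs. With the pair as a random block the adjusted p was 0.00978 for Atp2a2 and 0.0584 for Atp1b1. Without pair A the calls of Atp2b1, Cacnb3, Atp1b2, Kcnd2, Kcnd3 and Kcnk1 ended (limma adjusted p = 0.192, 0.18, 0.0723, 0.137, 0.266 and 0.318). Without pair C those of Atp2b1, Cacnb3, Atp1b2, Kcnd2 and Kcnk1 ended (0.147, 0.139, 0.0663, 0.0539 and 0.173), and without pair B that of Cacnb3 (0.0731).

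Among calmodulin-dependent enzymes and factors, 2 of 16 rose, beside 1.11% of all genes. Camk2b, a kinase subunit that also binds actin in spines, rose by the same amount in each pair (0.30, 0.32 and 0.30; log2 0.31, SE 0.061, adjusted p = 0.0185 by limma with pairs). Camta2, a transcription factor controlled by calmodulin, read 126, 103 and 106 against 199, 143 and 189.5 (log2 0.58, SE 0.13, adjusted p = 0.0345). The groups were apart for both, and each call ended without any one 6 h pair (adjusted p = 0.0848, 0.0646 and 0.0651 for Camk2b and 0.227, 0.0636 and 0.166 for Camta2, without A, B and C).

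Grm4, a metabotropic glutamate receptor that dampens release from granule neuron terminals, went from 284, 272 and 246 to 487, 425 and 379.9 with GW5074, with the groups apart and a similar rise in each pair (log2 0.65, SE 0.11, adjusted p = 0.0062 by limma with pairs). It was the call among 4 metabotropic receptors, and it ended without the 6 h pair A (adjusted p = 0.0723). Grina, a membrane protein first named for its association with NMDA receptors, rose (log2 0.34, SE 0.07, adjusted p = 0.0223) but ended without pair A (0.139) or C (0.0988). The true NMDA subunits Grin1, Grin2a, Grin2b and Grin2c were at 0.27, 0.053, 0.17 and 0.34 and did not pass. The 12 AMPA, kainate and delta receptor genes and 7 GABA-A subunits held 0 calls.

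Genes of granule neuron identity and maturation had 3 rises and 0 falls among 31 members, with a median of 0.16. Over all genes 1.11% rose and 0.838% fell. The 3 are Slc17a7, Grm4 and Kcnd2, all named above and already counted in the vesicle, metabotropic receptor and potassium channel lists. Transcription factors of the identity (Neurod1, Zic1 and Pax6) did not pass. The summed intensity of the 31 genes lay between 23275 and 27036 in low potassium and between 24306 and 29593 with GW5074. In RNA from a whole culture, more cells of a type and more RNA per cell cannot be told apart. Among 36 measured axon guidance and adhesion genes, L1cam, an adhesion protein of growing axons, rose (411, 479 and 597 against 678, 662 and 739; log2 0.49, SE 0.10, adjusted p = 0.0231 by limma with pairs), and its call ended without the 6 h pair A (adjusted p = 0.227) or B (0.0673). Tspan5, a tetraspanin of the neuronal surface, rose with 2 of 3 probe sets called (log2 0.51, SE 0.081, adjusted p = 0.00497) and ended without pair A (0.0616).

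**Figure D4:**
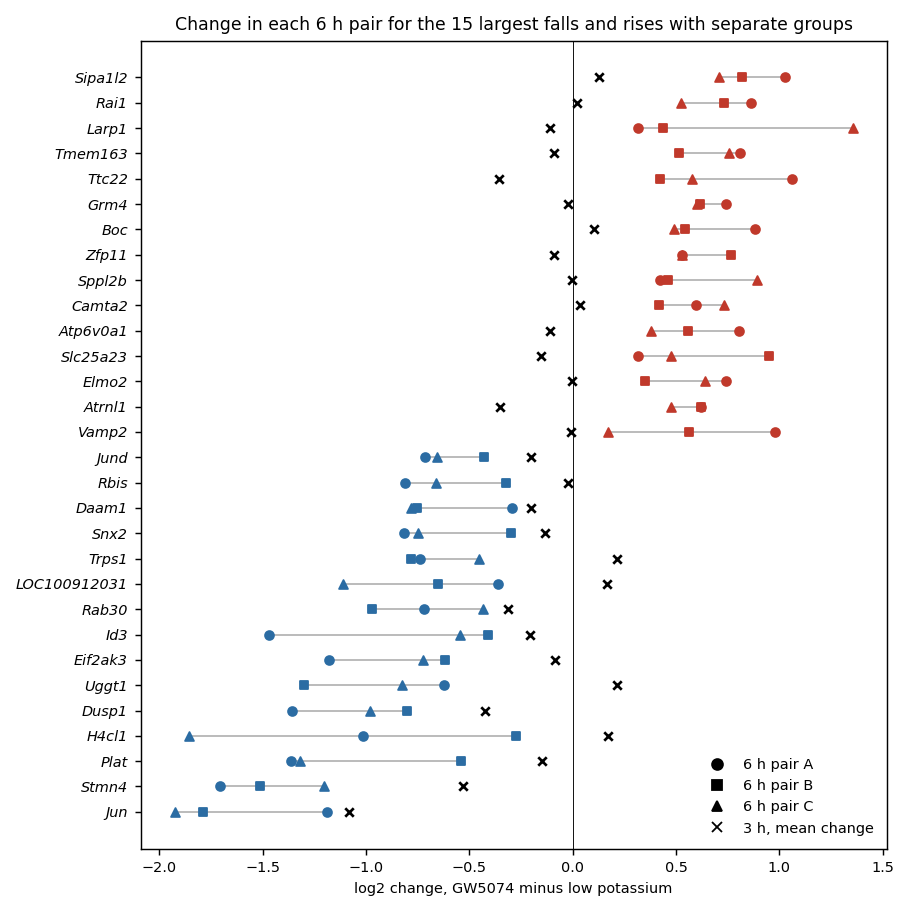
Log2 change (GW5074 minus low potassium) in each of the 3 pairs at 6 h for the 15 largest called falls (blue) and 15 largest called rises (red) with separate groups; crosses mark the mean change of the gene at 3 h. The pairs of a gene differ most for H4cl1, Larp1 and Id3, and most crosses lie near 0, with Jun at -1.08.

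Among nuclear genes, 2 of 23 deacetylase and chromatin genes rose and 2 of 8 histone genes fell, beside 1.11% and 0.838% of all genes. Rai1, a chromatin-associated regulator of transcription, went from 289, 354 and 306 in low potassium to 532, 591 and 445 with GW5074, with the groups apart (log2 0.71, SE 0.098, adjusted p = 0.00163 by limma with pairs). Kat2a, a histone acetyltransferase, rose from 144, 156 and 118 to 206, 217 and 214 (log2 0.55, SE 0.12, adjusted p = 0.0285). H4cl1, a histone H4 gene, fell from 93.9, 44.4 and 51.7 to 34.3, 32.4 and 3.14 (log2 -1.05, SE 0.24, adjusted p = 0.0339), a dim signal in which GW5074 array C was by far the lowest. H1f2, a linker histone, fell within wide and overlapping groups (log2 -0.29, SE 0.069, adjusted p = 0.0411).

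Ccnd1, cyclin D1, was the single call of 24 cell cycle genes, lower in each pair (-0.77, -0.22 and -0.66; log2 -0.55, SE 0.11, adjusted p = 0.0185 by limma with pairs) although letter B was high in both treatments. The mean over its probe sets was log2 -0.26. The sign of the change of Ccnd1 and of H1f2 turned in the fit without pairs when a single array was left out. The Kat2a call ended without any one 6 h pair (adjusted p = 0.122, 0.0546 and 0.154 without A, B and C), and those of H4cl1, H1f2 and Ccnd1 without A (0.192, 0.0743 and 0.18) or C (0.202, 0.216 and 0.083). Trps1, a GATA-type repressor, fell with separate groups (log2 -0.66, SE 0.13, adjusted p = 0.0163; mean over its probe sets, -0.43), a call that ended without A (0.132) or B (0.077).

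Of developmental signals, Boc, a surface co-receptor for sonic hedgehog, rose from 224, 326 and 325 to 431, 484 and 465 (log2 0.64, SE 0.11, adjusted p = 0.00951 by limma with pairs), the call among 9 Notch and hedgehog genes; it ended without the 6 h pair A (adjusted p = 0.119). Id3, an inhibitor of bHLH factors that astrocytes also express, was the call among 22 Id, TGF-beta and BMP genes. It read 167, 130.2 and 94.0 against 46.0, 94.2 and 57.5, with pair A far ahead of the others (-1.47, -0.41 and -0.55; log2 -0.81, SE 0.19, adjusted p = 0.0428). Low-potassium array C and GW5074 array B read alike, and the groups were apart only after normalisation. The call ended without A (0.382) or C (0.0765). Pair A was also the pair with the largest fall in summed astrocyte markers, from 8726 to 6661. In pair B the sum rose from 6721 to 7366, and in pair C it fell from 6647 to 5796. The part of these differences in the change of Id3 was not tested.

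Markers of other cells gave 1 call. Id3 was the only one called of 14 astrocyte markers, whose summed intensity lay between 6647 and 8726 in low potassium and between 5796 and 7366 with GW5074. The 10 oligodendrocyte, 13 microglia and macrophage, 8 endothelial and fibroblast and 11 Purkinje and GABAergic neuron markers gave 0 calls. Their summed intensities overlapped between the groups: 2956 to 3309 against 2468 to 3863, 1542 to 2800 against 1543 to 2028, 915 to 1385 against 802 to 1513, and 2742 to 3641 against 3074 to 3794, low potassium first. The medians of their log2 changes were -0.065, -0.11, -0.0076 and -0.23 in the same order, and -0.11 for the astrocyte markers, against 0.015 over all genes. Of the last list, the Purkinje genes Pcp2 and Calb1 read 63.8 ± 6.63 and 115 ± 47.3 in low potassium and 44.1 ± 15.1 and 80.9 ± 16.9 under GW5074 (SD, n = 3), and Gad1, which makes GABA, read 575 ± 85.6 and 570.1 ± 97.2. The part of these shifts in the changes of the neuronal genes was not tested.

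Among housekeeping families, beside the 1.11% of all genes that rose and 0.838% that fell, oxidative phosphorylation gave 0 calls in 44 genes with a median of -0.0011, and cytosolic ribosomal proteins 0 in 22 with -0.041. Of 30 proteasome subunits Psmd6 fell (log2 -0.26, SE 0.064, adjusted p = 0.0455 by limma with pairs), and the median of the family was -0.12. Ldhb, the lactate dehydrogenase of oxidative tissue, rose (log2 0.21, SE 0.045, adjusted p = 0.0267) among 27 glycolysis and hypoxia genes, and Hnrnpl, a splicing regulator, rose (log2 0.28, SE 0.068, adjusted p = 0.0458) among 30 splicing factors. All 3 calls ended without any one 6 h pair, with adjusted p of 0.282, 0.178 and 0.135 without A, 0.101, 0.0728 and 0.211 without B and 0.083, 0.0897 and 0.088 without C. Autophagy and lysosome genes (27), cholesterol genes (17), neurotrophin and IGF genes (15) and gp130 and inflammatory genes (16) held 0 calls. Of the aryl hydrocarbon receptor genes 4 were bright enough to test and 0 were called; the target Cyp1a1 was too dim, at 18.2 ± 8.43 in low potassium, against 30.9 ± 13.7 with GW5074 (SD, n = 3).

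Other large rises with separate groups fell in no family list. Larp1, which controls translation of ribosomal protein messages, went from 244, 302 and 112 to 317, 416 and 319 (log2 0.70, SE 0.15, adjusted p = 0.0231 by limma with pairs), mostly through a low reading on low-potassium array C, and the mean over its probe sets was 0.39. Atp6v0a1, a membrane subunit of the proton pump that acidifies vesicles and lysosomes, rose from 514, 534 and 729.5 to 918, 782 and 937 (log2 0.58, SE 0.097, adjusted p = 0.00683). Slc25a23, a mitochondrial carrier of ATP and phosphate regulated by calcium, and Sppl2b, an intramembrane protease, rose by 0.58 and 0.59. Ttc22, Zfp11 and Atrnl1 rose by 0.69, 0.61 and 0.57.

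Without the 6 h pair A the calls of Atp6v0a1, Slc25a23, Ttc22, Zfp11 and Atrnl1 ended (limma adjusted p = 0.0833, 0.0711, 0.357, 0.147 and 0.25), without B those of Slc25a23, Zfp11 and Atrnl1 (0.215, 0.151 and 0.143) and without C those of Larp1, Sppl2b, Slc25a23, Ttc22, Zfp11 and Atrnl1 (0.124, 0.107, 0.0879, 0.107, 0.0878 and 0.104).

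Further falls with separate groups were Snx2, a sorting nexin of the endosome (1080.3, 753 and 1018 against 631, 609 and 610.1; log2 -0.62, SE 0.10, adjusted p = 0.0062 by limma with pairs), Rbis, a factor of ribosome assembly (log2 -0.60, SE 0.12, adjusted p = 0.0185), Yme1l1, a mitochondrial protease with 2 of 4 probe sets called (log2 -0.47, SE 0.086, adjusted p = 0.0118), and LOC100912031 (log2 -0.71, SE 0.17, adjusted p = 0.0429). Without the 6 h pair A the calls of Snx2, Rbis, Yme1l1 and LOC100912031 ended (adjusted p = 0.0763, 0.18, 0.102 and 0.0847), without B that of LOC100912031 (0.102) and without C those of Snx2, Rbis and LOC100912031 (0.0539, 0.0857 and 0.244).

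Of the 200 called genes, 21 stayed past the threshold without each of the 6 h pairs in turn, a group chosen after its values were seen. On the falling side they were Jun, Cdr2, Stmn4, Tnfrsf12a, Plat, Pxdc1, Dusp1, Pik3r1, Dtna, Jund, Tbpl1 and Txnip, and on the rising side Atp1b1, Slc17a7, Atp2a2, Rasd2, Slc6a17, Pitpnm2, Tmem163, Rai1 and Sipa1l2. With the pair as a random block 8 of the 21 missed the threshold: Atp1b1 (limma adjusted p = 0.0584), Pxdc1 (0.0649), Slc6a17 (0.0735), Tnfrsf12a (0.0922), Slc17a7 (0.0937), Pitpnm2 (0.107), Txnip (0.165) and Dtna (0.204). Several have groups that overlap because letters differ more than treatments. Cdr2, an antigen known from cerebellar degeneration, read 606, 398 and 176 against 119.6, 255 and 37.96, with a fall in each pair of -2.26, -0.65 and -1.76 (log2 -1.56, SE 0.21, adjusted p = 0.00115 by limma with pairs). Tnfrsf12a, the receptor Fn14 of the cytokine TWEAK, read 632, 406 and 134 against 158, 287 and 58.3 (log2 -1.14, SE 0.18, adjusted p = 0.00457).

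Pxdc1 read 583, 675 and 242 against 191, 410.1 and 129 (log2 -1.06, SE 0.14, adjusted p = 0.000842 by limma with pairs), and Dtna, a dystrophin-associated protein, read 941, 295 and 1152 against 553, 178 and 675 (log2 -0.76, SE 0.12, adjusted p = 0.00359). Dtna fell by nearly the same amount in each pair, from levels that differed widely by letter, and the mean over its probe sets was log2 -0.45. Tbpl1, a relative of the TATA-binding protein, fell with separate groups (log2 -0.58, SE 0.088, adjusted p = 0.00396). On the other side Rasd2, a small GTPase of the Ras family, rose with separate groups (839.6, 985 and 720.4 against 1163, 1325 and 1106; log2 0.52, SE 0.071, adjusted p = 0.00149; mean over its probe sets, 0.33), and Pitpnm2, a lipid transfer protein, rose in each pair (0.87, 0.56 and 0.57; log2 0.67, SE 0.089, adjusted p = 0.00115), while its second probe set was at -0.17 and the mean of both at 0.25.

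**Figure D5:**
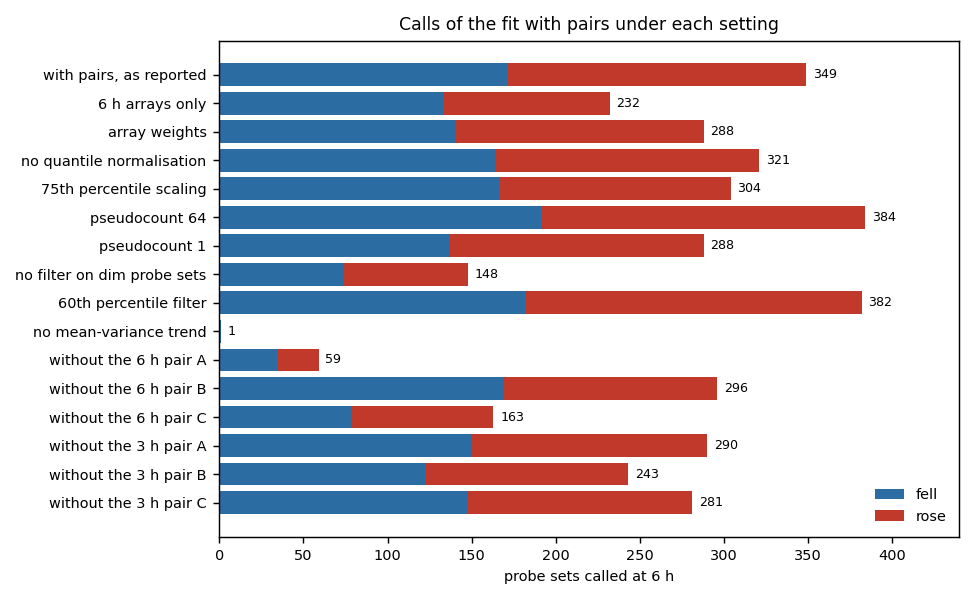
Number of probe sets called at 6 h by the fit with pairs (horizontal) under each setting, split into falls (blue) and rises (red). The count is 349 as reported, 59 without the 6 h pair A, 163 without pair C, 296 without pair B and 1 when the variance prior has no trend with intensity.

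At 3 h other arrays were compared. Of the 200 called genes, 96 had the same sign at 3 h: 44 of the 114 rises and 52 of the 86 falls, while over all genes 47.1% were positive and 52.9% negative at that time. The median 3 h change was -0.025 for the rises and -0.04 for the falls. Jun was the single gene of the 200 called at both times with pairs (log2 -1.08 at 3 h). These genes were chosen by their 6 h values, so the 3 h values do not show that most changes differ between the times. At 3 h Jun had read 301, 315 and 368 in low potassium and 167, 144 and 130.04 under GW5074, so every low-potassium array read higher at 6 h than at 3 h, whereas the GW5074 arrays of the 2 times overlapped.

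The difference between the 2 times was tested as an interaction. With pairs limma found 37 probe sets past the threshold, and without pairs 0. Without pairs 645 of the 18625 probe sets had an unadjusted p under 0.05, fewer than that threshold would pass by chance. Of the 10259 tested genes 20 differed between the times with pairs, 17 of them among the 200 called. The 200 were chosen by their 6 h values, which enter this difference. The 17 therefore do not measure how often the called changes depend on time. Stmn4 had read 542, 614 and 796 in low potassium, against 409.6, 411 and 477 with GW5074 at 3 h, a change of -0.53, so its low-potassium level and the gap to GW5074 were both larger at 6 h. For Cdr2, Dtna and Pik3r1 the 3 h changes were 0.17, 0.21 and 0.11, of the opposite sign. For Sipa1l2, Atp1b1 and Tmem163 they were 0.13, -0.03 and -0.089. The fall of Jun did not differ past the threshold between the times.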

How the data were processed

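Total RNA of 12 samples was measured on Affymetrix rat arrays, 1 array per sample; letters A, B and C, taken from the titles, name the arrays of a group. The deposited values are 1 linear intensity for each of 31099 probe sets, 57 of them controls, already scaled to a common level on every array, as the values themselves show. The sources used here do not name the software that summarised the scans. The number of arrays limits the precision.

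Controls were removed, the remaining intensities quantile-normalised, increased by 16 and put on a log2 scale. Probe sets at or above the 40th percentile of mean intensity were kept. Two-sided tests were made with lmFit and a trended eBayes of limma 3.58.1 (R 4.3.3), with Benjamini-Hochberg adjustment over all 18625 kept probe sets and a threshold of 0.05. The model was fitted to all 12 arrays as 4 groups, without a block (8 residual degrees of freedom) and with same-letter arrays of a time as a replicate block, the pairs (4). The pairing comes from the letters. It was checked on the values: each of the 6 pairs correlated by 0.210 or more after removal of the group means, and by at most 0.0600 with other letters. Deviations from a group mean cancel within the group, so a positive same-letter correlation lowers those with other letters. The contrast of these values is therefore not independent evidence for the pairing.

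Names come from a probe annotation matched by Entrez identifier to a GRCr8 gene table: 20826 probe sets have 1 symbol, 436 several and 9780 none, and 20758 matched, for 14217 genes. A gene is its brightest probe set. Named genes are the 15 largest called rises and falls whose groups do not overlap, the 5 smallest p without pairs, genes with 2 or more called probe sets (10 at most), up to 5 called members of each family, up to 2 members of a family without calls, and 9 genes set by name (Plat, Sipa1l2, Stmn4, Dusp1, Jun, Fos, Atf3, Hrk and Bcl2l11). Relatives of called genes, cell markers, Hrh3 and the genes called without each pair were added after their values were seen. A called gene that the rule names is not reported here. Members and lists were chosen with earlier results of these data known. Alternatives concerned the scaling, pseudocount, filter, variance prior, array weights, block, arrays in the fit and left-out arrays or pairs. Python 3.11.15 with matplotlib 3.10.9 drew the figures.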

Additional observations from a re-analysis of the deposited data

Results flagged for a closer look

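For 12 genes named above, the change at 6 h differed from that at 3 h by an interaction test in the limma fit with pairs, and for none of them without pairs (adjusted p of 1.0 each). Called genes were chosen by their 6 h values, which enter this difference, so the test favours them. The values that follow are the 6 h change minus the 3 h change on the log2 scale. Stmn4 gave -0.94 (adjusted p = 0.0239 with pairs), Cdr2 -1.72 (0.0363), Pik3r1 -1.07 (0.0413), Pxdc1 -1.04 (0.0441), Dtna -0.98 (0.0346) and Gadd45g -0.83 (0.0313). Upward differences were 0.78 for Tmem163 (0.0441), 0.77 for L1cam (0.046), 0.77 for Atp1b2 (0.0313), 0.72 for Sipa1l2 (0.0441), 0.66 for Tspan5 (0.0363) and 0.39 for Atp1b1 (0.0363).

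Gadd45g had gone the other way at 3 h, when it read 1202, 1535 and 1174 in low potassium and 1638, 1651 and 1429 under GW5074, a change of 0.25. L1cam and Atp1b2 were lower with GW5074 in each 3 h pair, with mean changes of -0.28 and -0.28, and higher in each 6 h pair.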

How the results depend on the processing

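The count of calls depended on how the spread was modelled. The fit without pairs called 0 probe sets, the replicate block (pairs) 349, the pair as a random block 97, the letter across both times as a block 7 and array weights 5; leaving out single arrays gave 0 to 3. With pairs, the count was 232 from the 6 h arrays alone, 148 with no filter on dim probe sets, 1 without a mean-variance trend, and 59 to 296 when a pair of either time was left out. The interaction had 0 probe sets without pairs and 37 with pairs. All 81 called genes named kept their direction under every setting with pairs that tested them (75 with the 60th percentile filter). They were chosen by the fit with pairs, so settings that refit the same pairs could hardly reverse them. The other scalings ended 8 (no quantile normalisation) and 10 (75th percentile) of these calls, pseudocounts of 1 and 64 ended 10 and 2, array weights 6, the 6 h arrays alone 22, no filter 34 and no trend 80. Leaving out the 6 h pairs A, B and C ended 56, 25 and 41, and the 3 h pairs 7, 15 and 9. The mean over all probe sets of a gene reversed 0 of 30, but it includes the called probe set and so could hardly reverse. Of the 200 called genes 68 had 2 or more probe sets. In 57 of the 68 all had one sign, and in 17 of the 68 at least 2 were called. The pair as a random block ended 49 of the 81 and kept 32, among them Jun, Stmn4, Dusp1, Plat and Sipa1l2; Atf3 (adjusted p = 0.138), Gadd45g (0.145) and Ccnd1 (0.429) were among those that ended.

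In the fit without pairs, leaving out single arrays turned the sign of some small or scattered changes: Bcl2l11 ran from -0.16 to 0.32, Ccnd1 from -1.21 to 0.096, Ddit3 from -0.81 to 0.033, Fos from -0.55 to 0.53, Grin2a from -0.11 to 0.19, H1f2 from -0.85 to 0.40, Stmn1 from -0.044 to 0.17, Stmn2 from -0.18 to 0.20 and Stmn3 from -0.029 to 0.048. Array weights gave Fos -0.18 and Stmn3 -0.018. Without quantile normalisation Stmn2 and Stmn3 were at -0.017 and -0.031, and with 75th percentile scaling at -0.024 and -0.039. Of 60 family medians, 35 changed sign under at least 1 setting and 6 under another scaling. Probe sets near the background have the least certain changes; the cause of these dependences was not tested.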

Other observations

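Several called genes outside the family lists were picked here after their values were seen. Arid5a, an RNA-binding protein that stabilises inflammatory messages, read 153, 78.8 and 19.9 in low potassium and 25.3, 36.8 and 9.58 under GW5074 and fell (log2 -1.09, SE 0.24, adjusted p = 0.0286 by limma with pairs). Sh2d3c, an adaptor protein that couples receptors to Rap and Ras, fell from 284, 137 and 152 to 159, 68.2 and 46.8 (log2 -1.003, SE 0.17, adjusted p = 0.00704). Palld, which bundles actin filaments, fell as well (log2 -0.80, SE 0.15, adjusted p = 0.0118). The groups overlapped for these 3 genes and each pair was lower. When the 6 h pair A was left out, all 3 calls ended (adjusted p = 0.34, 0.0508 and 0.15), and without pair C those of Sh2d3c and Palld (0.0691 and 0.0719).

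Hrh3, a histamine receptor that dampens transmitter release, had the largest called rise, from dim readings of 20.5, 57.1 and 13.3 to 61.1, 115 and 37.6 (log2 0.95, SE 0.21, adjusted p = 0.0306 by limma with pairs), with overlapping groups. Shank3, a scaffold of the excitatory postsynapse, rose from 219.9, 229 and 168 to 321, 309.8 and 271 (log2 0.50, SE 0.10, adjusted p = 0.0227). Ncs1, a neuronal calcium sensor, rose in each pair (0.95, 0.57 and 0.42; log2 0.64, SE 0.10, adjusted p = 0.00594; mean over its 3 probe sets, 0.23), and so did Nefh, the heavy neurofilament (0.82, 0.41 and 0.33; log2 0.52, SE 0.11, adjusted p = 0.0232). When the 6 h pair A was left out, the calls of Hrh3, Shank3, Ncs1 and Nefh ended (adjusted p = 0.25, 0.126, 0.0711 and 0.255), without B that of Hrh3 (0.0903) and without C those of Hrh3 and Shank3 (0.0815 and 0.115). Nfasc, an adhesion protein of the axon initial segment, gave different values by probe set: its brightest was at 0.21 and did not pass, and another rose by 1.30.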
